A study of Mus musculus with 4 samples.

Results

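The genes described here are the TCF/LEF transcription factors and the core of the Wnt signalling pathway in T29, a mouse cell line derived from a thymic lymphoma. They are Lef1, Tcf7l1 and Tcf7l2, encoding factors of the TCF/LEF family, Ctnnb1, encoding beta-catenin, Axin2 and Apc, encoding scaffolds that hold beta-catenin for degradation, and Satb1, encoding a chromatin organiser of thymocytes. Members were every probe set on the array whose single gene symbol in the platform annotation was a listed gene. This gave 22 probe sets for 7 genes, of 45037 probe sets tested and 18193 genes in all. There were 5 for Satb1, 4 each for Apc and Tcf7l2, 3 for Ctnnb1 and 2 each for Lef1, Tcf7l1 and Axin2. The list also holds Tcf7, encoding TCF-1, which was not analysed here because the annotation used pairs no probe set with it.

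Cells received DMSO, the solvent control, or the gamma-secretase inhibitor MRK003 (GSI), with 2 arrays per group. The treatment text, the same for all samples, gives a dose of 5 mM, an amount that could not be checked, for 36 h. All samples are of the 1 line. Whether replicates came from cultures grown apart is not stated, so each p-value measures array spread that may be technical. Values are log2 expression from RMA, which corrects background, normalizes between arrays and combines the probes of a probe set. Probes bind with different strength, so brighter and dimmer describe the signal of a probe set, and also chose the 1 that stands for a gene, but give no order of transcript amounts. A probe set was called dim when it lay below the median of its array, which was 4.86 to 4.89. Fits with dim genes removed used a higher cut, the median of the gene means (5.78), and kept 9097 of 18193 genes.

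In the Wnt pathway, secreted ligands bind Frizzled receptors and thereby stop the destruction complex, in which the AXIN and APC proteins hold beta-catenin for phosphorylation. Stabilised beta-catenin enters the nucleus and binds TCF/LEF factors, which otherwise repress their targets together with Groucho/TLE proteins. In the thymus TCF-1 and LEF-1 support early T cell development, and Axin2 is a widely used feedback target of the pathway. Gamma-secretase cleaves Notch receptors, whose intracellular part acts on DNA through the factor RBPJ.

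Of the T lineage markers, 5 of 7 measured lay above the medians of all 4 arrays. So did 10579 of all 18193 genes, each read by its brightest probe set, so this count alone does not mark the lineage. Cd3e, encoding a chain of the T cell receptor complex, was at 10.54 and 10.58 with DMSO and 10.44 and 10.39 with GSI. The other 2, Cd2 and Cd5, were dim. Among these markers Cd247 and Thy1 rose by 0.81 and 0.53 and Cd3g fell by 0.47 (limma, adjusted p = 0.0136, 0.0409 and 0.0409), and their part in the results below was not tested. On all arrays 0 of 7 B cell, 2 of 8 myeloid, 1 of 5 erythroid and 3 of 10 stromal or epithelial markers lay above the medians. The count to set beside them is again 10579 of 18193 genes. The median level of each of these 4 lists lay between 4.09 and 4.68 on every array. Pdgfrb fell and Pecam1 rose among the stromal markers (limma, adjusted p = 0.00475 and 0.0186), which was likewise not tested.

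The DNA next to the starts of the member genes is shown because Lef1, the member that passed the test, has RefSeq starts that lie far apart. Which of its transcripts each probe set detects was not analysed here. The RefSeq promoter table of GRCm38.p6 held 15 windows for 6 of the 7 genes, each running from 250 bases before to 50 after a start. For Axin2 it held 1 start, at 108920349, while the RefSeq gene begins upstream of it, at 108917828. Printed below, 5′ to 3′, are the 250 bases before the outermost Lef1 start (chr3:131110047-131110296, plus strand), before an internal Lef1 start 45997 bases further on (chr3:131156044-131156293, plus strand) and before the Axin2 start (chr11:108920099-108920348, plus strand). Capitals mark matches to CTTTGA, 1 form of the core that TCF/LEF factors recognise, or to TGGGAA, a core that RBPJ recognises, on either strand. Other forms of these cores were not searched.
Lef1 outermost start: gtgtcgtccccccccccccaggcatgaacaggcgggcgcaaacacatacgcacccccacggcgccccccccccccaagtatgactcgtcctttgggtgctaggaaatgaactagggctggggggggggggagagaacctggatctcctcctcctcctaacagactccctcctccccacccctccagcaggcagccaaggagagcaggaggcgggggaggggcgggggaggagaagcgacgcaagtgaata
Lef1 internal start: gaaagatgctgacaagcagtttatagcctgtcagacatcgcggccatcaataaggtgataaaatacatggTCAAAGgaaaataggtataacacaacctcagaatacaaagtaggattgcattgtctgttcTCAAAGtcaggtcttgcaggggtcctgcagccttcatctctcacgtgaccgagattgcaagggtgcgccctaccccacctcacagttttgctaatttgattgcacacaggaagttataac
Axin2 start: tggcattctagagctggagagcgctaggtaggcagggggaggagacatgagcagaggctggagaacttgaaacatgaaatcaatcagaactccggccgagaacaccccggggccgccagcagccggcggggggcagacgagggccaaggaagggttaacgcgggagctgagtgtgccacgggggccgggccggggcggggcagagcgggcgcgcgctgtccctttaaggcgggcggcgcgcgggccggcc

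The internal Lef1 window held CTTTGA at 180 and 120 bases before the start, both on the minus strand, where it reads TCAAAG. It was the 1 window of the 15 with these exact letters, which occur in 16.0% of all 32851 windows of the same length. TGGGAA was in 6 of the 15 windows and in 25.6% of all windows. It lay 39 bases after the outermost Lef1 start, a stretch not printed here, and 55 bases before the Tcf7l1 start. The Axin2 window had neither CTTTGA nor TGGGAA. The window of a neighbouring Lef1 start overlaps and holds the same match. These matches are letters in a window and show no binding.

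Lef1, whose product LEF-1 binds TCF/LEF sites, was the member that fell with the inhibitor, and both of its probe sets were lower. Probe set 1454734_at, the brighter, read 11.35 and 11.39 with DMSO and 10.67 and 10.74 with GSI. Probe set 1421299_a_at read 10.11 and 10.42 with DMSO and 9.30 and 9.39 with GSI. In both, the groups were separate, and the larger gap between arrays of 1 group was 0.31, for the second probe set with DMSO, against group differences of -0.66 and -0.92.

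The brighter Lef1 probe set fell by 0.66 on the log2 scale, or 1.58-fold (SE 0.0920, 95% interval -0.89 to -0.44; limma, adjusted p = 0.0378 over all probe sets and 0.0185 when 1 probe set stood for each gene). The dimmer fell by 0.92, or 1.89-fold (SE 0.131, interval -1.24 to -0.60; limma, adjusted p = 0.0417 over all probe sets). As the mean of both, Lef1 stood at -0.79 (limma, adjusted p = 0.00960). Whether the 2 probe sets differ in size of fall was not tested. In bulk RNA, fewer cells with Lef1 transcripts and fewer transcripts per cell cannot be told apart. The call rested on all 4 arrays: without DMSO replicate 1, DMSO replicate 2, GSI replicate 1 or GSI replicate 2 the gene's difference was -0.68, -0.64, -0.63 and -0.70, with limma adjusted p = 0.151, 0.143, 0.217 and 0.126. Across the array 0 to 6 of the 18193 genes were called with 1 array left out. Of the genes named from the lists below, Dtx1 and Il2ra passed without either DMSO array, and none passed without a GSI array.

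So 1 of 7 member genes was called lower and 0 higher, where limma called 1.56% of all 18193 genes lower and 2.56% higher. At an unadjusted p under 0.05, 2 member genes were lower, Lef1 and Axin2, and 1 higher, Satb1, against 10.7% of all genes lower and 10.8% higher. Of the 22 member probe sets 2 were called lower, both of Lef1, and 0 higher, against 0.446% lower and 0.948% higher of all probe sets, and probe sets of 1 gene are not independent. Both GSI arrays lay below both DMSO arrays in 9 member probe sets and above them in 3. Over the whole array these positions were taken by 25.2% and 21.3% of probe sets.

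**Figure D1:**
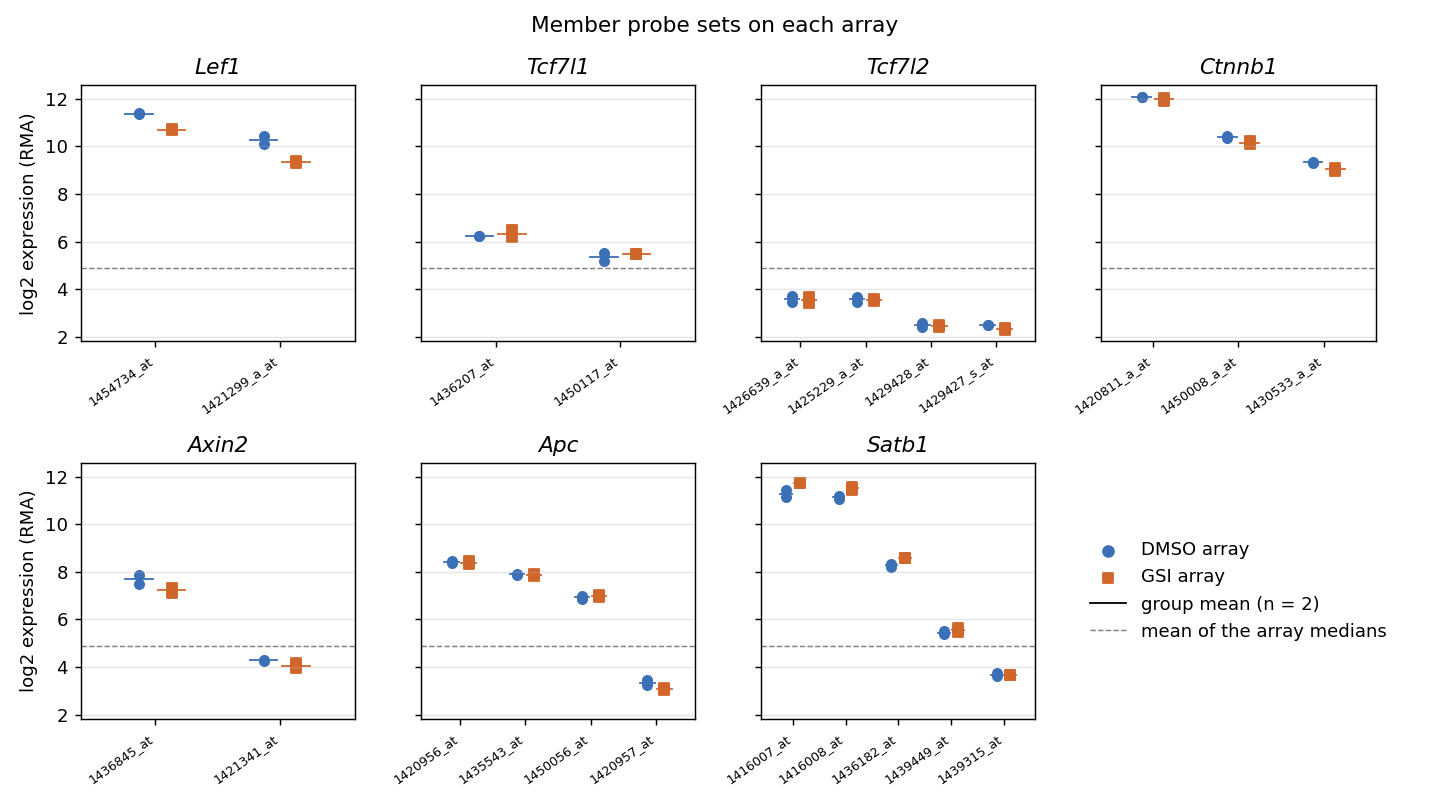
Log2 expression (vertical axis) of each of the 22 member probe sets (horizontal axis), in 1 panel per gene, with circles for the 2 DMSO arrays, squares for the 2 GSI arrays, short lines for group means and a dashed line for the mean of the array medians. The squares lie clear below the circles for both Lef1 probe sets and above them for the 3 brightest Satb1 probe sets, and all 4 Tcf7l2 probe sets lie under the dashed line.

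The other measured TCF factors showed no called difference. Tcf7l1, encoding TCF-3, a member of the family known mainly as a repressor, read 6.23 and 6.22 with DMSO and 6.49 and 6.17 with GSI on probe set 1436207_at. Its probe set 1450117_at read 5.20 and 5.52 with DMSO and 5.48 on both GSI arrays. The groups overlapped in both, and the differences of 0.11 (95% interval -0.21 to 0.43) and 0.12 (-0.20 to 0.44) were smaller than the gap of 0.32 between arrays of 1 group. The intervals do not exclude changes between -0.20 and 0.43 for either probe set.

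Tcf7l2, encoding TCF-4, best known from the intestine, was dim on every array in all 4 of its probe sets. Probe set 1426639_a_at read 3.45 and 3.70 with DMSO and 3.66 and 3.43 with GSI, and 1425229_a_at read 3.47 and 3.67 against 3.57 and 3.51. The remaining probe sets lay between 2.29 and 2.56 on the 4 arrays. The GSI arrays were both lower in 1429427_s_at alone, by 0.18 (95% interval -0.41 to 0.04; limma, adjusted p = 0.403), and the differences of the other 3 were -0.04, -0.03 and -0.04. Signal over background was not analysed here, so these values set no lower limit on its expression.

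Ctnnb1, whose product beta-catenin is the coactivator of TCF/LEF factors, had lower GSI means in all 3 probe sets, and none of them was called. Probe set 1420811_a_at read 12.09 and 12.07 with DMSO and 11.91 and 12.03 with GSI. Probe set 1450008_a_at read 10.36 and 10.42 against 10.09 and 10.24. Probe set 1430533_a_at read 9.36 and 9.32 against 8.98 and 9.08. The GSI arrays lay below the DMSO arrays each time. The differences were -0.11, -0.23 and -0.31 (SE 0.0962, 0.10 and 0.0945; limma, adjusted p = 0.659, 0.336 and 0.202 over all probe sets). Their 95% intervals of -0.34 to 0.13, -0.48 to 0.02 and -0.54 to -0.07 overlap.

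Axin2 pointed down in both probe sets without passing. Probe set 1436845_at read 7.88 and 7.50 with DMSO and 7.33 and 7.11 with GSI, so the arrays were separate, but the DMSO arrays stood 0.38 apart. Its difference of -0.47 (SE 0.156, 95% interval -0.86 to -0.08) had a limma adjusted p of 0.228 over all probe sets and 0.155 over genes. It ranged from -0.66 to -0.28 when 1 array was left out, and without DMSO replicate 1 it stood at -0.28. The dim probe set 1421341_at read 4.25 and 4.31 against 3.94 and 4.17, a difference of -0.23 (interval -0.51 to 0.06; limma, adjusted p = 0.402).

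Apc, the scaffold of the destruction complex, was level in its brighter probe sets. Probe set 1420956_at read 8.35 and 8.46 with DMSO and 8.43 and 8.33 with GSI. Probe set 1435543_at read 7.92 and 7.86 against 7.91 and 7.81, and 1450056_at read 6.98 and 6.87 against 7.02 and 6.93. The groups overlapped in all 3, with differences of -0.03, -0.03 and 0.05 and 95% intervals within -0.27 to 0.29. The dim probe set 1420957_at read 3.25 and 3.43 against 3.01 and 3.11, a difference of -0.28 that was not called (limma, adjusted p = 0.285).

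Satb1, whose product folds chromatin at T lineage genes, pointed the other way from Lef1 in its 3 brightest probe sets. Probe set 1416007_at read 11.12 and 11.42 with DMSO and 11.73 and 11.74 with GSI. Probe set 1416008_at read 11.06 and 11.19 against 11.45 and 11.54, and 1436182_at read 8.34 and 8.21 against 8.59 and 8.57. In all 3 the GSI arrays lay above both DMSO arrays. Probe set 1439449_at, at 5.38 and 5.51 against 5.47 and 5.62, and the dim 1439315_at, at 3.62 and 3.74 against 3.64 and 3.68, overlapped between groups.

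The Satb1 differences were 0.46, 0.37 and 0.30 in the 3 brightest probe sets (SE 0.124, 0.101 and 0.0973; limma, adjusted p = 0.156, 0.163 and 0.213 over all probe sets) and 0.10 and -0.02 in the others. As a gene, represented by its brightest probe set, Satb1 missed the threshold (limma, adjusted p = 0.0959). With dim genes removed it passed (adjusted p = 0.0354), as it did under a robust prior with an intensity trend (adjusted p = 0.0134). Those settings called 1838 of the 9097 genes kept and 1941 of all 18193, against 750 in the main fit. As the mean of its 5 probe sets Satb1 stood at 0.24 (adjusted p = 0.178), and leaving out 1 array moved the main difference between 0.32 and 0.61.

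**Figure D2:**
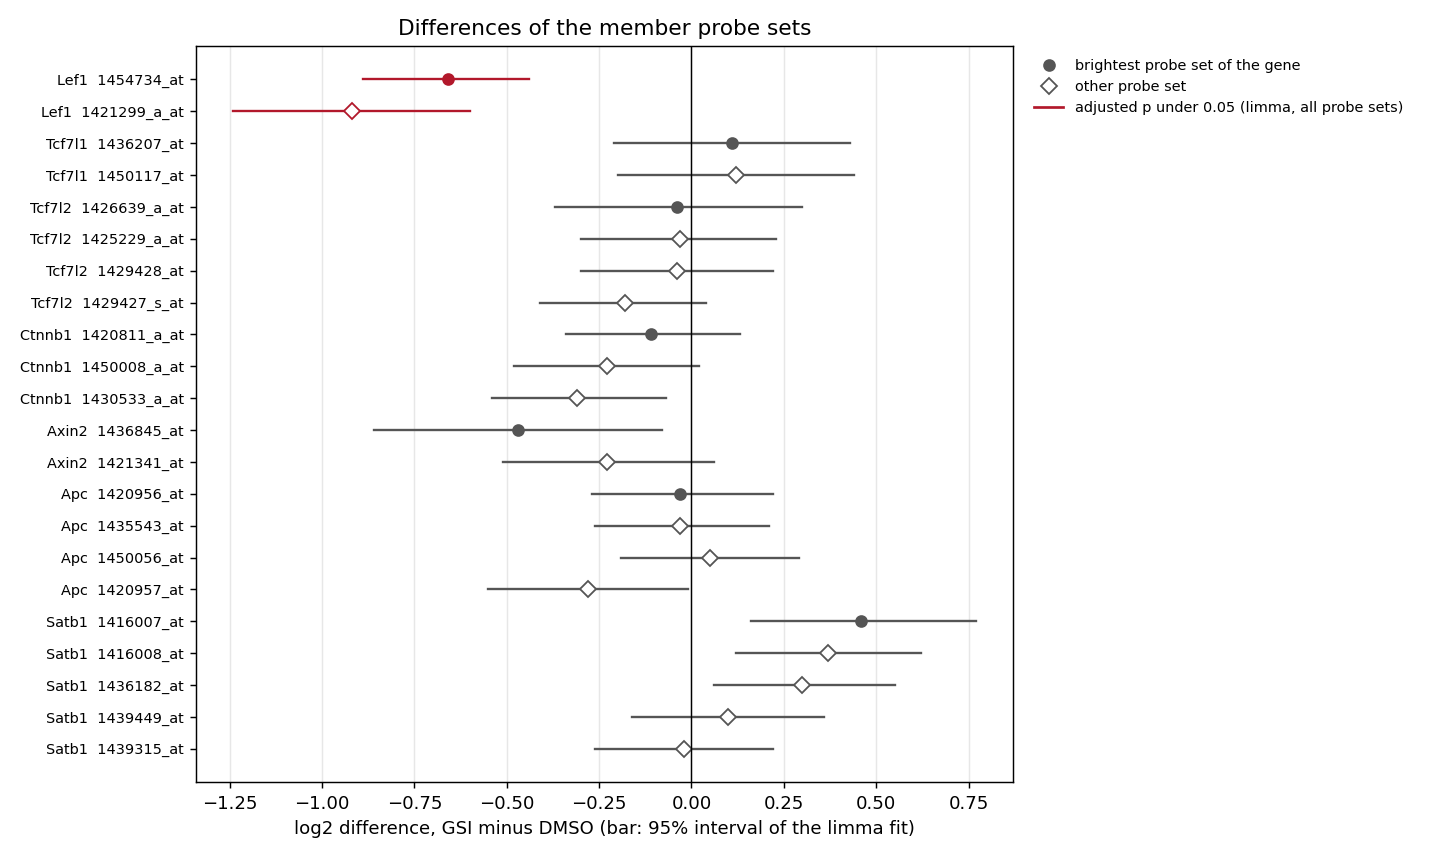
Log2 difference between GSI and DMSO (horizontal axis) for each of the 22 member probe sets (rows), with bars for the 95% interval of the limma fit, filled circles for the brightest probe set of a gene and red for an adjusted p under 0.05. The 2 Lef1 probe sets, at -0.66 and -0.92, are the red ones, and the intervals of the 3 brightest Satb1 probe sets lie above 0.

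Patterns over the 4 arrays like those of 2 members were looked up by the root mean square distance of log2 values, each gene centred on its own mean. Nearest to Lef1 were the gene model 2700038G22Rik at 0.0109, the phosphatase gene Ptpn14 at 0.0154 and Carm1, encoding an arginine methyltransferase, at 0.0284. Nearest to Satb1 were St8sia1, encoding a sialyltransferase, at 0.0169, the transcription factor gene Stat3 at 0.0203 and the fatty acid transporter gene Slc27a1 at 0.0243. At a wider limit of 0.1, there were 173 genes near Lef1 and 327 near Satb1, of 18193.

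The rest of the pathway was read from 7 lists by role, with the members themselves left out. Of 120 measured genes limma called 3 higher and 2 lower at an adjusted p under 0.05, or 4.17%, against 4.12% of all genes tested, so the share of calls was near the background. Their median difference was 0.0234, against -0.0125 over all genes. At an unadjusted p under 0.05, 16 were higher and 15 lower, where 10.8% of all genes were higher and 10.7% lower. In 4 separate fits without 1 array each, 0 of the 120 were called.

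Among 19 ligands, 9 were dim on all arrays, and limma called 1, or 5.26%, against 4.12% of all genes. This was Wnt8b, which rose. It read 5.44 and 5.15 with DMSO and 6.45 and 6.24 with GSI, a 2.07-fold difference (limma, adjusted p = 0.0177), and its other probe sets differed by 0.57 and 0.24 without being called. Limma called 0 of 20 receptor genes, and at an unadjusted p under 0.05 there was 1 higher and 4 were lower, against 10.8% and 10.7% of all genes. Lgr4, encoding a receptor for R-spondins, differed by -0.40 and Ryk, encoding a receptor with an inactive kinase domain, by -0.49 (limma, adjusted p = 0.0640 and 0.0676). Lgr4 passed with dim genes removed (adjusted p = 0.0189), a fit that called 1838 of the 9097 genes kept. As averages over probe sets Lgr4 and Ryk stood at -0.27 and -0.28 (adjusted p = 0.135 and 0.116). Of 18 genes of ligand secretion and extracellular inhibition limma called 1, or 5.56%, against the same 4.12%. This was Wls, which rose and encodes the protein that carries Wnt ligands to the cell surface. It read 8.91 and 8.83 against 9.65 and 9.52, 1.65-fold higher (limma, adjusted p = 0.0187). The average over all Wls probe sets missed the threshold (adjusted p = 0.0536).

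Limma called 0 of 26 genes of the destruction complex and the cytoplasmic relay, and at an unadjusted p under 0.05 there were 2 higher and 3 lower, against 10.8% and 10.7% of all genes. Nkd1, which like Axin2 is a feedback inhibitor and known target of the pathway, read 6.40 and 6.05 with DMSO and 5.70 and 5.50 with GSI (difference -0.63; limma, adjusted p = 0.0747). Its other probe sets differed by -0.66, -0.06 and -0.10 and were not called. With dim genes removed Nkd1 passed (adjusted p = 0.0280), and as the average over its probe sets it stood at -0.36 (adjusted p = 0.0798). The Dishevelled gene Dvl1 differed by -0.27 (limma, adjusted p = 0.137). Of the settings tried, Dvl1 passed only with dim genes removed (adjusted p = 0.0462), a fit that called 1838 of the 9097 genes kept. Of 14 coactivator genes limma called 1, or 7.14%, against 4.12% of all genes. At an unadjusted p under 0.05, 5 were higher and 2 lower, against 10.8% and 10.7% of all genes, and the list median was 0.181. The called gene, Carm1, fell 1.56-fold, from 8.56 and 8.65 to 7.91 and 8.02 (limma, adjusted p = 0.0272). Over all probe sets Carm1 missed the threshold (adjusted p = 0.0526). Limma called 0 of 7 other catenin and cadherin genes, and at an unadjusted p under 0.05 there was 1 higher and 2 were lower, against the same shares of all genes. Ctnna1, encoding alpha-catenin, differed by 0.43 (limma, adjusted p = 0.0593). It passed with dim genes removed (adjusted p = 0.0177) and stood at 0.18 as the average over its probe sets (adjusted p = 0.318). Cdh1, encoding E-cadherin, differed by -1.51 with DMSO arrays 1.32 apart (limma, adjusted p = 0.111). It was dim on every array except DMSO replicate 1, and without that array the difference was -0.85.

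Corepressors that work with TCF/LEF factors moved in both directions. Tle5, encoding a short TLE protein that lacks the WD repeats of its relatives, read 8.39 and 8.43 with DMSO and 9.54 and 9.60 with GSI. This was a 2.23-fold rise (limma, adjusted p = 0.00440). Tle3, encoding a full-length TLE corepressor, read 10.79 and 10.72 against 10.05 and 10.11, a 1.60-fold fall (limma, adjusted p = 0.0186). Its other 3 probe sets differed by -0.67, -0.68 and -0.48 and were not called. The other family members were added after their values were seen: Tle6 differed by 0.43 (limma, adjusted p = 0.0851), and Tle1, Tle2 and Tle4 were dim. The list of 16 corepressors and beta-catenin inhibitors thus had 1 gene higher, 1 lower and 14 not called, with a median of 0.0623. That is 12.5% called, against 4.12% of all genes. At an unadjusted p under 0.05, 4 were higher and 2 lower, against 10.8% and 10.7% of all genes.

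**Figure D3:**
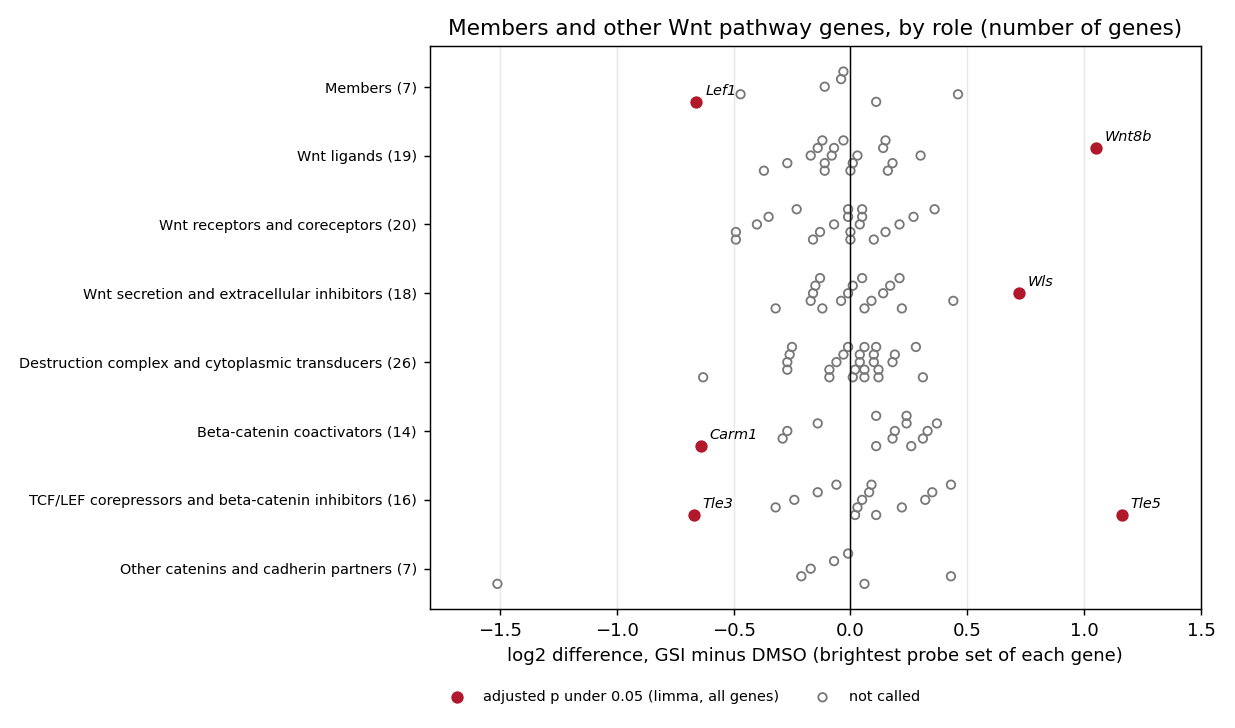
Log2 difference between GSI and DMSO (horizontal axis) of the 7 members and of the genes of 7 Wnt pathway lists (rows, with the number of genes), each gene by its brightest probe set, filled where limma's adjusted p was under 0.05. Lef1 is the filled member, and 5 of the 120 other genes are filled: Wnt8b, Wls and Tle5 to the right of 0 and Carm1 and Tle3 to the left.

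**Figure D4:**
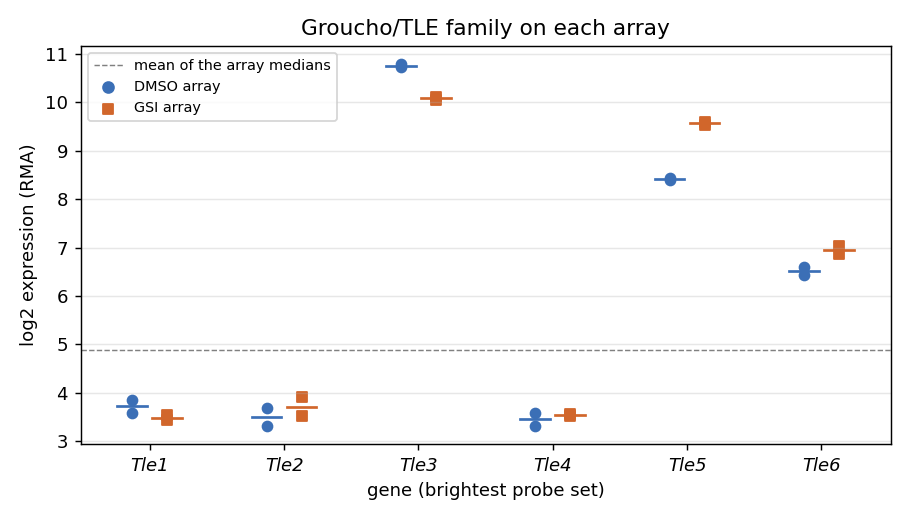
Log2 expression (vertical axis) of the 6 Groucho/TLE family genes (horizontal axis, brightest probe set of each), with circles for DMSO arrays, squares for GSI arrays, short lines for group means and a dashed line for the mean of the array medians. Tle3 squares lie below and Tle5 squares above their circles, and Tle1, Tle2 and Tle4 lie under the dashed line.

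Genes known from other tissues as Wnt targets gave 2 falls among 25, and 23 were not called. This is 8% called, all lower, where limma called 1.56% of all genes lower and 2.56% higher. The growth regulator Myc fell 1.54-fold and the AP-1 gene Jun 1.58-fold (limma, adjusted p = 0.0390 and 0.0326). Whether Wnt signalling or another pathway lies behind these 2 falls was not tested. In the fit over probe sets Myc and this Jun probe set missed the threshold (adjusted p = 0.0719 and 0.0608), and there another Jun probe set passed at -1.96 (adjusted p = 0.00546). Both Jun probe sets were dim with GSI, the first at 4.51 and 4.57 and the other at 3.64 on each array. The median of the list was 0.0137. At an unadjusted p under 0.05, 1 gene was higher and 4 were lower, against 10.8% and 10.7% of all genes. The receptor gene Lgr5 and the ubiquitin ligase gene Rnf43, both chosen after their values were seen, were dim and differed by -0.01 and 0.05. Tnfrsf19, chosen in the same way, had the largest difference of the list, -1.10. It was dim with GSI and was not called (limma, adjusted p = 0.0563).

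T lineage genes linked to TCF-1 or LEF-1 changed in both directions. Of 30 measured, 6 rose and 6 fell, with a median of 0.163, and this list also holds genes regulated by Notch. That is 40% called, against 4.12% of all genes. Like all lists used here, this one was drawn up with earlier results of these data known. The 6 largest log2 differences were those of Dtx1 (-3.53), Il2ra (-2.87), Hes1 (-2.26), Ptcra (-1.70), Cd28 (1.20) and Cd8a (1.07), and of these Dtx1, Hes1 and Ptcra are textbook Notch targets. Of 20 genes linked to SATB1 in T cells, 4 rose and 2 fell, or 30% against the same 4.12%. The rises were Cd8a, Cd8b1 (0.97), Cd4 (0.75) and Gata3 (0.63), and the falls Il2ra and Myc (-0.62). For Cd4 and Gata3 limma's adjusted p over genes was 0.0306 and 0.0406, and over probe sets both missed the threshold (adjusted p = 0.0558 and 0.0733). Both lists share members with each other, and Myc is also in the list of Wnt targets, so they do not stand as separate evidence. Among 9 relatives of the member genes 22.2% were called, against 4.12% of all genes, and the called Tox is also in the first of these lists. Tox, encoding an HMG-box factor, and Cux1, encoding a homeodomain factor with CUT domains like those of SATB1, rose by 0.83 and 0.46 (limma, adjusted p = 0.0148 and 0.0443). Cux1 missed the threshold over probe sets (adjusted p = 0.0843) and as their average (adjusted p = 0.0762).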

How the data were processed

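RNA of 4 samples was measured on Affymetrix arrays, 2 per group taken from the sample titles. The deposited values are log2 expression made with RMA, per the submitters' processing notes; no version or setting of RMA is given in the sources used here, and probe-level files were not used. RMA compresses differences of dim probe sets, and it forces arrays to like distributions. Of 45037 probe sets that are no controls, 34945 had 1 symbol, updated to RefSeq GRCm38.p6 names. GSI was compared with DMSO by limma 3.58.1 in R 4.3.3 (lmFit, eBayes, two-sided) over all probe sets, and over 18193 genes with the brightest probe set of each, with Benjamini-Hochberg adjustment and calls at an adjusted p under 0.05. Motifs were searched as exact letters. Named from each list were up to 6 called genes by size, or the 2 with the smallest p. The members and lists were chosen with earlier results of these data known. Alternatives are in the closing section. The number of arrays limits precision.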

Additional observations from a re-analysis of the deposited data

How the results depend on the processing

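Counts of calls depended on the settings. Of the members, limma called 2 genes with dim features left out and 2 with an intensity trend and robust prior, in both cases Lef1 lower and Satb1 higher. It called 4 member probe sets with that prior. Of the 120 other pathway genes it called 15 with each of these settings. With dim features left out, members and pathway genes below the cut, Tcf7l2 among them, were not tested, so these counts have unlike totals. Over genes the same settings called 1838, of the 9097 kept, and 1941 in place of 750. Over probe sets they called 1556, of the 22519 kept, and 2372 in place of 628. Median centring, cyclic loess and, for genes, the mean of probe sets left the count of members as it was. No separate batch is named in the labels.

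Same-numbered arrays correlated at 0.0695 in their deviations from the group means. With 2 arrays per group this value cannot decide whether they were pairs, and the main fit did not treat them as such. With the replicate number as a block limma called 0 member genes, 0 member probe sets, 2 of the 120 pathway genes, 217 genes in all and 65 probe sets in all, and Lef1 stood at -0.66 with an adjusted p of 0.0657. With 1 array left out, 0 member genes, 0 member probe sets and 0 pathway genes were called, and 0 to 6 genes in all. Lef1 then ranged from -0.70 to -0.63.

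Signs changed when 1 array was left out in 3 uncalled member genes and 9 uncalled member probe sets. The ranges were -0.05 to 0.26 for Tcf7l1, -0.16 to 0.09 for Tcf7l2 and -0.08 to 0.03 for Apc. For the probe sets they were -0.0530 to 0.265 (1436207_at) and -0.0398 to 0.281 (1450117_at) for Tcf7l1. For Tcf7l2 they were -0.159 to 0.0890 (1426639_a_at), -0.130 to 0.0668 (1425229_a_at) and -0.111 to 0.0289 (1429428_at). For Apc they were -0.0846 to 0.0319 (1420956_at), -0.0789 to 0.0226 (1435543_at) and -0.00355 to 0.108 (1450056_at), and for Satb1 -0.0796 to 0.0394 (1439315_at). The cause of these changes was not tested.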
